A study of Mus musculus with 10 samples.

Results

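Fragments of the nuclear tRNAs that carry arginine were followed in mature mouse sperm after a high-fat or a control diet. Arginine is delivered by 5 nuclear isoacceptors, tRNAs that differ in the anticodon, and the members were taken by name as tRNA-Arg-ACG, tRNA-Arg-CCG, tRNA-Arg-CCT, tRNA-Arg-TCG and tRNA-Arg-TCT. These are 5 of the 51 nuclear tRNAs that the read tables list by anticodon. Each was split into the parts of the tRNA that its reads came from, namely the 5′ end, the 3′ end, the end with the added CCA, and the remaining reads, called internal here. This gave 20 tRNA-Arg features of 204 nuclear tRNA features.

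Sperm came from the cauda epididymis and vas deferens of C57BL/6J males of the F0 generation, which began the diets at 4 weeks of age. The CD-F0 group (n = 5) ate a control diet with 10% of kcal from fat, and the HFD-F0 group (n = 5) a diet with 42% of kcal from fat. No allele or further agent is named for either group. The labels do not say whether a sample was 1 male or a pool, so the p-values measure the spread between these samples.

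A tRNA is cut in sperm and in stressed cells mostly in its anticodon loop, by nucleases such as angiogenin, which leaves a 5′ and a 3′ fragment. The 5′ fragments are abundant in mature sperm, which receives many of them while it passes through the epididymis. CCA is added to the 3′ end after transcription and is not written in the nuclear genes. The arginine tRNAs differ in their chemistry at the anticodon loop. In tRNA-Arg-ACG the first anticodon base is edited to inosine, whereas tRNA-Arg-CCT and tRNA-Arg-TCT carry 3-methylcytidine in the anticodon loop, as the threonine tRNAs do. Genes for tRNA-Arg-TCT often hold a short intron that is spliced out of the mature tRNA.

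The genes of the most abundant pair, tRNA-Arg-TCG and tRNA-Arg-TCT, are shown by 1 gene each, the only tRNA-Arg genes that the sequences at hand covered. The anticodon is in capitals, so that the 5′ fragments lie to its left and the 3′ and CCA end fragments of the mature tRNA to its right. The genes are written before splicing, and an intron, which mature fragments lack, is not marked.
n-TRtcg5 (tRNA-Arg-TCG): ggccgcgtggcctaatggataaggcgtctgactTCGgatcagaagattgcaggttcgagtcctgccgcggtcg
n-TRtct2 (tRNA-Arg-TCT): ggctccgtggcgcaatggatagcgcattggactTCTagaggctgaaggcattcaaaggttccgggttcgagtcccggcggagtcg
The first gene lies on the plus strand at chr7:79466419-79466491 of GRCm38, inside the transcript Gm10616-201 and within the promoter window of Polg. The second lies on the minus strand at chr3:122292948-122293032, inside an exon of Gm17494-202, a noncoding transcript annotated as a retained intron. Positions come from RefSeq and bases from the RefSeq and GENCODE M21 sequences that cover them. The anticodon takes positions 34 to 36 in both genes. Over the first 30 bases the genes had the same base at 21 positions. The tRNA-Arg-TCT gene is 12 bases longer. Sequences of the other isoacceptors were not analysed here.

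RefSeq lists 24 nuclear tRNA-Arg genes on GRCm38. The 6 genes of tRNA-Arg-ACG, the 3 of tRNA-Arg-CCG, the 5 of tRNA-Arg-CCT and the 5 of tRNA-Arg-TCG are all 73 bases long. The 5 genes of tRNA-Arg-TCT span 74 to 87 bases. Of the 24 genes, 8 lie on chromosome 13. Reads are summed over the genes of an anticodon in the tables, so the gene a fragment came from is not known. Mean level did not follow gene number, since tRNA-Arg-CCG gave 762 RPM (reads per 1000000 clean reads of the library) for each of its genes and tRNA-Arg-ACG 154 RPM for each of its genes.

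The CD-F0 libraries held 30431401 to 31586854 clean reads, and the HFD-F0 libraries 29558751 to 32178088. No pair of libraries was near sampling noise, with a chi-square per degree of freedom of at least 532 over 45 pairs. The sperm and germ cell miRNAs (13 of 13 listed hairpins present) summed to 17441 to 20459 RPM in CD-F0 and 12637 to 24679 RPM in HFD-F0. Epididymal epithelium miRNAs (6 of 6) summed to 3969 to 6756 RPM and 5520 to 9463 RPM, smooth muscle miRNAs (4 of 4) to 21352 to 29447 RPM and 15876 to 36525 RPM, and blood and immune miRNAs (6 of 8) to 1544 to 2537 RPM and 1432 to 3140 RPM. No hairpin found was at 0 in any library, and the part of these cells in the tRNA-Arg reads was not tested. In such bulk samples, fewer cells of a type and less RNA per cell cannot be told apart.

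The arginine isoacceptors together made up 11808 ± 1312 RPM (SD, n = 5) in CD-F0 sperm and 10695 ± 2686 RPM (SD, n = 5) in HFD-F0 sperm. This was 4.32% to 5.17% of all nuclear tRNA reads in CD-F0 and 3.46% to 5.51% in HFD-F0, with overlapping groups. Precursor reads of tRNA-Arg-TCT reached at most 7 per library.

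In the order of mean level, tRNA-Arg-TCG came first with 3132 RPM, the 24th of the 51 nuclear tRNAs. It was followed by tRNA-Arg-TCT (2925 RPM, rank 25), tRNA-Arg-CCG (2287 RPM, rank 29), tRNA-Arg-CCT (1985 RPM, rank 30) and tRNA-Arg-ACG (923 RPM, rank 40). tRNA-Arg-TCG led in 6 of the 10 libraries and tRNA-Arg-TCT in the other 4, and tRNA-Arg-ACG was the lowest in all 10. Levels were compared between neighbours in this order within each library, in 4 comparisons by a two-sided exact permutation test with sign flips, whose smallest p is 0.00195. tRNA-Arg-CCT exceeded tRNA-Arg-ACG 2.16-fold (1.86 to 2.63-fold, higher in 10 of 10 libraries, exact permutation p = 0.00195, the smallest possible). tRNA-Arg-CCG exceeded tRNA-Arg-CCT 1.13-fold in 9 of 10 libraries, which missed the threshold (exact permutation p = 0.0762). The exception was HFD-F0 replicate 1, and without it the exact permutation p was 0.00391. That is the smallest p that 9 libraries allow. Leaving out the only exception fixed it in advance, so it adds no support for the order. tRNA-Arg-TCG over tRNA-Arg-TCT (1.17-fold, range 0.588 to 2.61) and tRNA-Arg-TCT over tRNA-Arg-CCG (1.17-fold, range 0.529 to 2.70) each held in 6 of 10 libraries and did not differ beyond the spread (exact permutation p = 0.346 and 0.371).

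**Figure D1:**
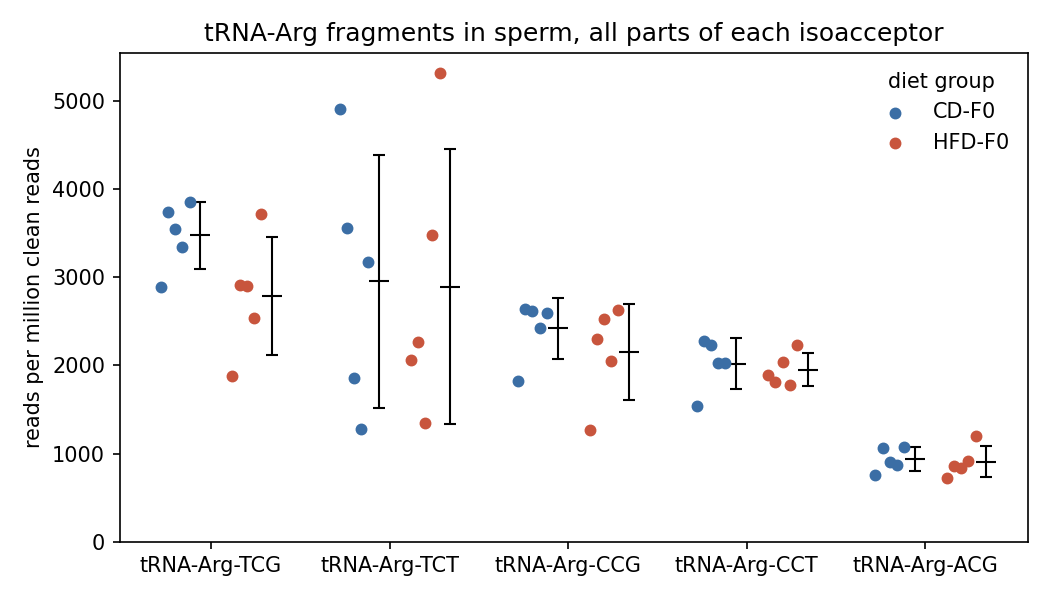
Level of each nuclear tRNA-Arg isoacceptor, all parts summed, in RPM, with 1 point per library (5 CD-F0 in blue, 5 HFD-F0 in red) and the mean ± SD in black. tRNA-Arg-TCT ran from 1281 to 5312 RPM, the widest range of the isoacceptors, and the diet groups overlapped for every isoacceptor.

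The isoacceptors differed most in which part of the tRNA their sequenced fragments came from. The paper selected short RNAs by size on a gel before sequencing, so these shares hold only for fragments within that size window. Its upper limit lies within the length range that the paper gives for sperm tRNA fragments. Longer 5′ fragments may therefore be missing from the shares and from the 5′ end levels below. 5′ end reads made up 74.5% of tRNA-Arg-TCG reads and 69.0% of tRNA-Arg-TCT reads on average, but 31.6% for tRNA-Arg-CCG, 24.5% for tRNA-Arg-ACG and 7.25% for tRNA-Arg-CCT. Over the 51 nuclear tRNAs the median was 46.2%, and these shares ranked 17th, 18th, 35th, 40th and 48th. In tRNA-Arg-CCT, which reads AGG codons, 90.2% of the reads were internal, the 4th highest internal share. The 3′ end held little of any isoacceptor, from 3.34 RPM for tRNA-Arg-CCT to 45.8 RPM for tRNA-Arg-CCG in single libraries.

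**Figure D2:**
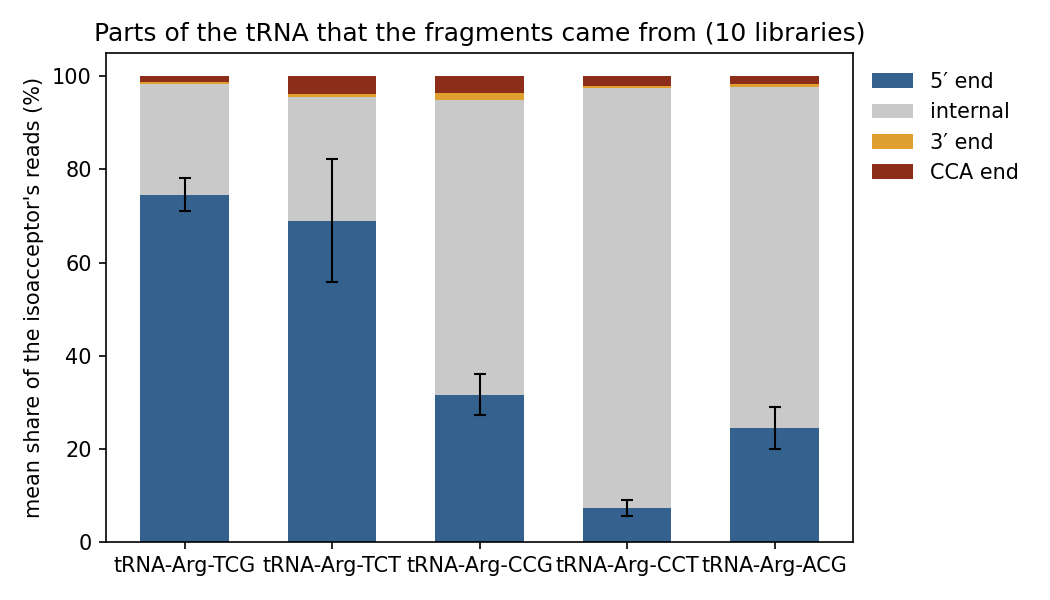
Mean share, in percent, of the reads of each tRNA-Arg isoacceptor that came from the 5′ end, the inside, the 3′ end and the CCA end, over 10 libraries, with the SD of the 5′ end share as a bar. The 5′ end share falls from 74.5% in tRNA-Arg-TCG to 7.25% in tRNA-Arg-CCT.

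The order by 5′ end level was therefore another. tRNA-Arg-TCG and tRNA-Arg-TCT gave 73.4% to 85.8% of all tRNA-Arg 5′ end reads in a library, and tRNA-Arg-CCT was now the lowest in all 10 libraries. In 5′ end reads tRNA-Arg-CCT lay below tRNA-Arg-ACG, with a mean log2 difference of -0.66 (exact permutation p = 0.00195). Among nuclear tRNAs known for 5′ fragments in sperm, the 5′ end level ran from 154 RPM for tRNA-His-GTG to 26126 RPM for tRNA-Lys-TTT. The mean 5′ end level of tRNA-Arg-TCG, the highest of the arginine isoacceptors, was 2342 RPM, and tRNA-Arg-CCT lay between 91.7 and 193.9 RPM.

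The mean composition of tRNA-Arg-TCG and tRNA-Arg-TCT differed by 5.57 percentage points, counted as the share of reads that would have to move between parts. No tRNA of another amino acid came as near to either. The nearest were tRNA-Thr-TGT (7.38 points) and tRNA-Ser-CGA (7.39 points) for tRNA-Arg-TCG, and tRNA-Val-CAC (10.1 points) and tRNA-Thr-TGT (10.4 points) for tRNA-Arg-TCT. tRNA-Arg-CCT was nearest to tRNA-Ile-TAT (3.95 points) and tRNA-Thr-CGT (5.86 points). tRNA-Arg-CCG was nearest to tRNA-Leu-CAG (3.18 points) and tRNA-Gln-TTG (3.78 points), and tRNA-Arg-ACG to tRNA-Gly-ACC (3.41 points) and tRNA-Asn-GTT (3.59 points). All these distances are between shares averaged over the libraries, so single libraries can differ more. Over the libraries the 5′ end share had an SD of 13.2 points for tRNA-Arg-TCT and 3.51 points for tRNA-Arg-TCG.

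Among the arginine isoacceptors, tRNA-Arg-TCT stood out by how much its 5′ fragment varied between libraries of the same diet. Its 5′ end level was 4236, 2654, 1257, 622.8 and 2427 RPM in CD-F0 replicates 1 to 5. In HFD-F0 replicates 1 to 5 it was 1407, 1531, 596.9, 2672 and 4210 RPM. High and low libraries occurred under both diets, and the groups overlapped over nearly their whole ranges. The highest level was 7.10 times the lowest, and the SD of log2 RPM within diet was 1.07, the 2nd largest of 49 nuclear 5′ end features, whose median was 0.376. Wider fold ranges occurred at the 5′ ends of tRNA-Glu-CTC (60.3-fold), tRNA-Gly-GCC (8.76-fold), tRNA-Thr-TGT (8.42-fold) and tRNA-iMet-CAT (7.85-fold). The internal reads of tRNA-Arg-TCT varied 1.77-fold, from 539.8 to 957.6 RPM. The 5′ end share of tRNA-Arg-TCT reads therefore ran from 44.5% in HFD-F0 replicate 3 and 48.6% in CD-F0 replicate 4 to 86.3% in CD-F0 replicate 1.

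A tRNA of another amino acid went up and down with it. The 5′ end of tRNA-Thr-TGT was at 4701, 2154, 1051, 694.9 and 2029 RPM in CD-F0 replicates 1 to 5, and at 2075, 1057, 558.3, 2150 and 3752 RPM in HFD-F0 replicates 1 to 5. Both fragments were highest in CD-F0 replicate 1 and HFD-F0 replicate 5 and lowest in CD-F0 replicate 4 and HFD-F0 replicate 3. After each was centred on its mean over the 10 libraries, they differed by a root mean square of 0.30 on the log2 scale, and the next nearest 5′ end, that of tRNA-Ser-CGA, by 0.64. Of the other tRNAs listed with 3-methylcytidine, the 5′ end varied 3.22-fold for tRNA-Thr-AGT, 2.11-fold for tRNA-Arg-CCT and 2.05-fold for tRNA-Thr-CGT. That list held only arginine and threonine tRNAs, and a part of the modification was not tested. The internal reads of tRNA-Thr-TGT varied 1.24-fold. The libraries share their depth, and this likeness is a description over 10 points.

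**Figure D3:**
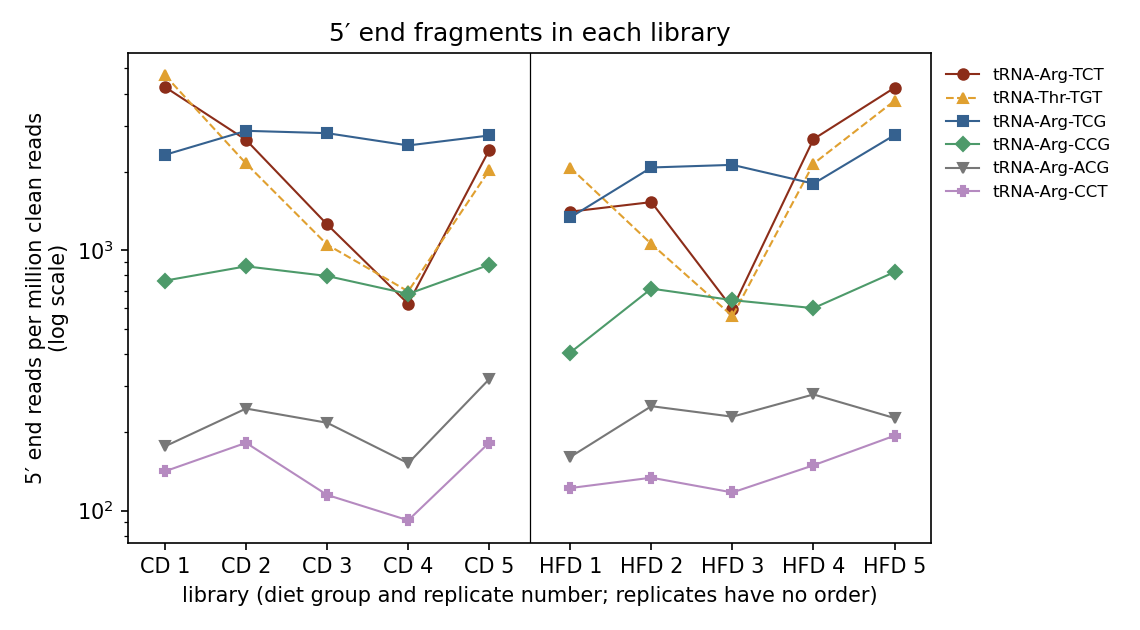
5′ end level in RPM, on a log scale, of the 5 tRNA-Arg isoacceptors and of tRNA-Thr-TGT in each of the 10 libraries, with lines only to guide the eye within a diet group. tRNA-Arg-TCT and tRNA-Thr-TGT move together between 558.3 and 4701 RPM while tRNA-Arg-TCG stays between 1337 and 2876 RPM.

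In summed level over all parts, tRNA-Arg-TCT was likewise nearest to tRNA-Thr-TGT (root mean square 0.25 on the log2 scale) and tRNA-Ser-CGA (0.43). tRNA-Arg-TCG was nearest to tRNA-Gly-TCC (0.22) and tRNA-Asn-GTT (0.23) among other amino acids, and nearer still to tRNA-Arg-CCG (0.13). Again among other amino acids, tRNA-Arg-CCG was nearest to tRNA-Ala-AGC (0.16) and tRNA-Ala-CGC (0.17), and tRNA-Arg-ACG to tRNA-Gly-TCC (0.15) and tRNA-Tyr-GTA (0.17). tRNA-Arg-CCT was nearest to tRNA-Tyr-GTA (0.073) and tRNA-Val-AAC (0.11), and its total level was the steadiest of the 5, with a highest library 1.47 times the lowest. A read that fits several tRNAs is split between them in these counts, and the part of this in the likenesses was not tested.

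The internal reads of tRNA-Arg-TCT also failed to match the genome more often than those of any other nuclear tRNA. The tables count reads that match the mouse genome apart from reads that match a tRNA but not the genome. Of the tRNA-Arg-TCT internal reads, 19.2%, 23.6%, 25.7%, 30.9% and 40.7% did not match the genome in CD-F0 replicates 1 to 5. The shares were 13.1%, 41.2%, 30.2%, 34.5% and 25.3% in HFD-F0 replicates 1 to 5. Their mean of 28.4% was the highest of 51 nuclear tRNAs, whose median was 0.663%. tRNA-Ile-TAT (21.1%), tRNA-Thr-AGT (16.8%) and tRNA-Tyr-GTA (10.3%) followed. The other arginine isoacceptors lay at 5.87% (tRNA-Arg-TCG), 5.28% (tRNA-Arg-CCG), 3.04% (tRNA-Arg-CCT) and 0.961% (tRNA-Arg-ACG). Where a tRNA gene has an intron, the mature tRNA differs from the genome at the splice junction. Its part in these shares was not tested, and tRNAs with and without introns were not compared. None of the 5′ end and 3′ end reads of the 5 isoacceptors lacked a genome match. The mean share of CCA end reads that did was 96.3% to 99.4% by isoacceptor, with single libraries from 87.3% to 100%. Over nuclear tRNAs the median of this unmatched share was 0% for 5′ ends, 0% for 3′ ends and 63.5% for CCA ends.

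CCA end reads varied widely between libraries of the same diet. For tRNA-Arg-CCG the level was 25.0, 89.7, 44.0, 87.2 and 144.6 RPM in CD-F0 replicates 1 to 5, and 20.5, 121.6, 127.6, 108.8 and 84.2 RPM in HFD-F0 replicates 1 to 5. The 7.05-fold range was the 2nd widest by SD of log2 RPM within diet among 50 CCA end features. Replicate 1 of both groups was also the lowest of its group for tRNA-Arg-CCT, tRNA-Arg-TCG and tRNA-Arg-TCT. tRNA-Arg-ACG went the other way in CD-F0 replicate 1, where its 23.2 RPM was the highest of the 10 libraries. Over all nuclear tRNAs together the CCA end share was 1.72% and 1.66% in those replicates and 1.57% to 2.57% in the others.

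The comparison of the diets asked whether a high-fat diet before mating changed these fragments in sperm. The thresholds of the study were applied, p of at most 0.05 and a change of at least 1 on the log2 scale, in a fit over all features. The study applied them to single tRNA-derived small RNAs, whereas a feature here sums all reads of a part of an anticodon's tRNAs. Changes of single fragments were not tested. None of the 20 tRNA-Arg features and none of the 5 isoacceptor totals passed both thresholds with edgeR's quasi-likelihood test. Across all features 3.69% of 814 parts and 2.96% of 641 totals did so. At p of at most 0.05 alone, 1 of the 20 features passed, beside 10.2% of all parts, and 0 of the 5 totals, beside 11.7% of all totals. DESeq2 also passed 0 tRNA-Arg features at both thresholds. All 20 features and 5 totals passed the filter on low counts.

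That feature was the 5′ end of tRNA-Arg-TCG, the most abundant arginine fragment. It was at 2325, 2876, 2817, 2527 and 2759 RPM in CD-F0 replicates 1 to 5 and at 1337, 2079, 2128, 1802 and 2770 RPM in HFD-F0 replicates 1 to 5. In HFD-F0 sperm 4 of 5 libraries lay below every CD-F0 library, and replicate 5 lay within them. The log2 fold change was -0.46 ± 0.20 (SE), with an unadjusted p of 0.0427 and an adjusted p of 0.432 over all 814 features in edgeR's quasi-likelihood test, so it did not hold after adjustment. The p rose above the threshold on leaving out CD-F0 replicate 3 (0.0653) or 4 (0.0619), or HFD-F0 replicate 2 (0.0526) or 3 (0.0635), all in edgeR's quasi-likelihood test. The total of tRNA-Arg-TCG differed by -0.36 ± 0.21 (SE) on the log2 scale, with an adjusted p of 0.527 in edgeR's quasi-likelihood test. Without HFD-F0 replicate 5 it was -0.52, with an unadjusted p of 0.0212 and an adjusted p of 0.373 in the same test of edgeR. HFD-F0 replicate 5 held the highest total of its group, so the smaller p without it adds no support for a difference.

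The 5′ end of tRNA-Arg-CCG had the next smallest p. It was at 764.1, 867.4, 796.3, 679.6 and 879.1 RPM in CD-F0 replicates 1 to 5 and 404.7, 712.2, 643.1, 599.2 and 824.5 RPM in HFD-F0 replicates 1 to 5. Here 3 HFD-F0 libraries lay below all of CD-F0. Its log2 fold change was -0.39 ± 0.21 (SE), with an unadjusted p of 0.0895 and an adjusted p of 0.532 in edgeR's quasi-likelihood test. Without HFD-F0 replicate 5 it was -0.52, with an unadjusted p of 0.0325 and an adjusted p of 0.418 in edgeR's quasi-likelihood test. This library was again the highest of its group, so the smaller p without it adds no support for a difference.

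The 5′ ends of the other isoacceptors showed smaller differences. The 5′ end of tRNA-Arg-TCT differed by -0.19 ± 0.56 (SE, adjusted p = 0.948 in edgeR's quasi-likelihood test), and its sign turned without CD-F0 replicate 1 (0.25) or HFD-F0 replicate 3 (0.053). For tRNA-Arg-CCT the log2 fold change was -0.07 and for tRNA-Arg-ACG -0.02, which turned to 0.008 and 0.05 when clean reads set the library size. The fitted changes of all 5 tRNA-Arg 5′ ends were thus below 0 with TMM scaling, with a median of -0.19, but not with clean reads as library size. Among all nuclear 5′ ends tested, 35 of 49 were below 0, with a median of -0.12.

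Of the 20 fitted changes the 2 largest were at 3′ ends, where levels were low. The 3′ end of tRNA-Arg-TCT was at 7.20, 13.5, 11.8, 15.4 and 22.2 RPM in CD-F0 replicates 1 to 5, and at 5.75, 26.8, 23.3, 32.8 and 31.1 RPM in HFD-F0 replicates 1 to 5. HFD-F0 replicates 2 to 5 lay above every CD-F0 library and replicate 1 lay below all of them. The log2 fold change was 0.73 ± 0.44 (SE), with an adjusted p of 0.584 in edgeR's quasi-likelihood test. Without HFD-F0 replicate 1 it was 0.95, with an unadjusted p of 0.00559 and an adjusted p of 0.183 in edgeR's quasi-likelihood test. That replicate was the only HFD-F0 library against the difference, so leaving it out adds no support for it. The 3′ end of tRNA-Arg-CCT differed by -0.47 ± 0.33 (SE, adjusted p = 0.659 in edgeR's quasi-likelihood test), that of tRNA-Arg-CCG by 0.32 ± 0.28 (SE, adjusted p = 0.744, same test).

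**Figure D4:**
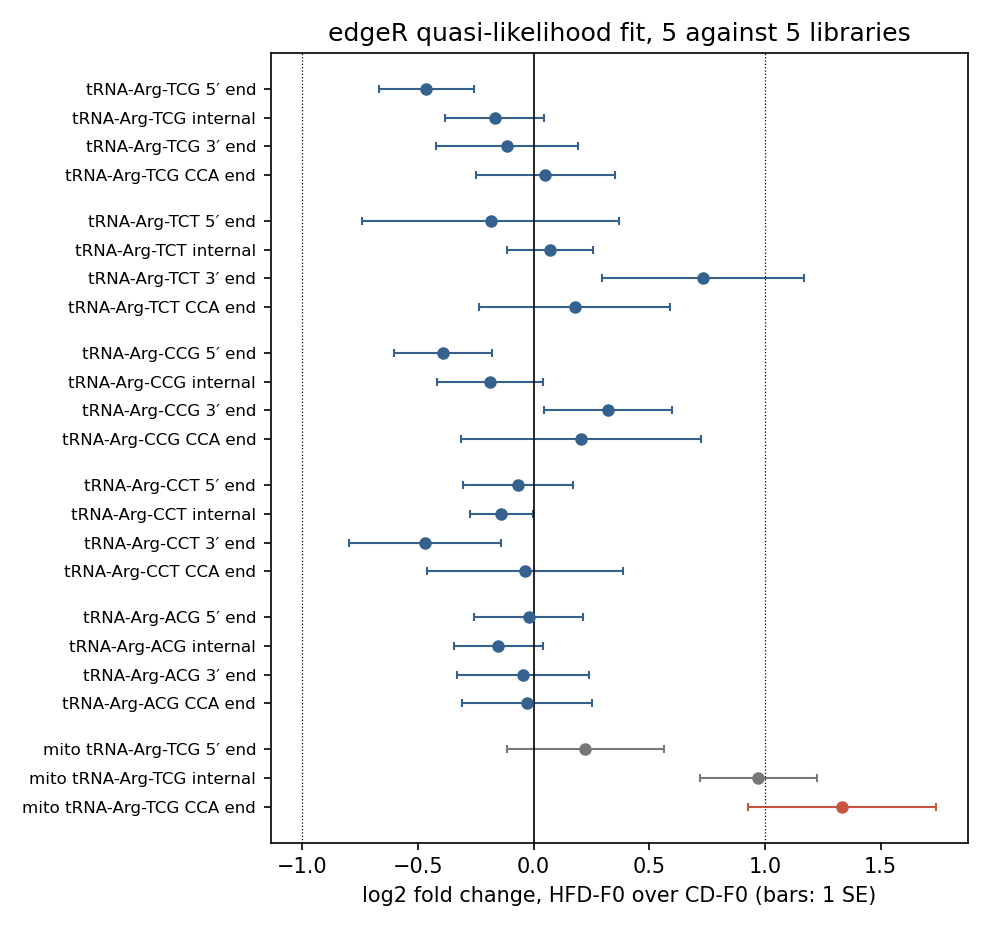
Log2 fold change, HFD-F0 over CD-F0, with 1 SE, for the 20 nuclear tRNA-Arg features (blue) and 3 parts of the mitochondrial tRNA-Arg (grey, or red where p was at most 0.05 and the change at least 1) in edgeR's quasi-likelihood fit. Dotted lines mark changes of 1 in either direction, which no nuclear tRNA-Arg feature reached.

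Over the 20 features 14 fitted changes were below 0 and 6 above, with a median of -0.06, beside -0.005 over all 814 features. In the related lists, none of the 12 parts of 3 threonine tRNAs with 3-methylcytidine and none of the 28 parts of 7 tRNAs with inosine in the anticodon passed both thresholds. Among the 44 parts of 11 tRNAs known for 5′ fragments in sperm, 1 was higher, the CCA end of tRNA-Glu-CTC.

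Because a share does not depend on library size, the parts were also compared as percentages of each isoacceptor's reads. Over all nuclear tRNAs 6.86% of 204 such tests reached p of at most 0.05, and the smallest adjusted p was 0.231. For tRNA-Arg-TCG the 5′ end share was 80.5%, 76.9%, 79.5%, 75.5% and 71.6% in CD-F0 replicates 1 to 5 and 71.1%, 71.3%, 73.4%, 71.1% and 74.6% in HFD-F0 replicates 1 to 5. All HFD-F0 libraries lay below the 4 highest CD-F0 libraries, and CD-F0 replicate 5 lay among them. The means were 76.8% ± 3.52 and 72.3% ± 1.61 (SD, n = 5 each), a difference of -4.50 percentage points (two-sided exact permutation p = 0.0317, adjusted p = 0.623 over the 204 tests). The internal share of tRNA-Arg-TCG was higher by 4.05 points (exact permutation p = 0.0397, adjusted p = 0.623). The 5′ end and internal reads were nearly all of its reads, so this mirrors the 5′ end difference and is no separate result. Without CD-F0 replicate 1 or 3, or HFD-F0 replicate 1, 2 or 4, the 5′ end difference missed the threshold, with exact permutation p from 0.0635 to 0.0714.

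The smallest p that 5 against 5 libraries allow, 0.00794, was reached by the 3′ end share of tRNA-Arg-CCG. It was 0.966%, 1.20%, 1.07%, 1.42% and 1.11% in CD-F0 replicates 1 to 5 and 1.52%, 1.77%, 1.68%, 1.71% and 1.74% in HFD-F0 replicates 1 to 5. Every HFD-F0 library lay above every CD-F0 library, which, in either direction, held for 7 of the 204 shares of nuclear tRNA parts (3.43%). The means were 1.15% ± 0.171 and 1.68% ± 0.0994 (SD, n = 5 each), with an adjusted exact permutation p of 0.231. The 5′ end shares of the other isoacceptors differed by 2.12 points for tRNA-Arg-ACG, -3.65 for tRNA-Arg-CCG, 0.17 for tRNA-Arg-CCT and -3.48 for tRNA-Arg-TCT, less than the spread between libraries (exact permutation p from 0.222 to 0.865).

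**Figure D5:**
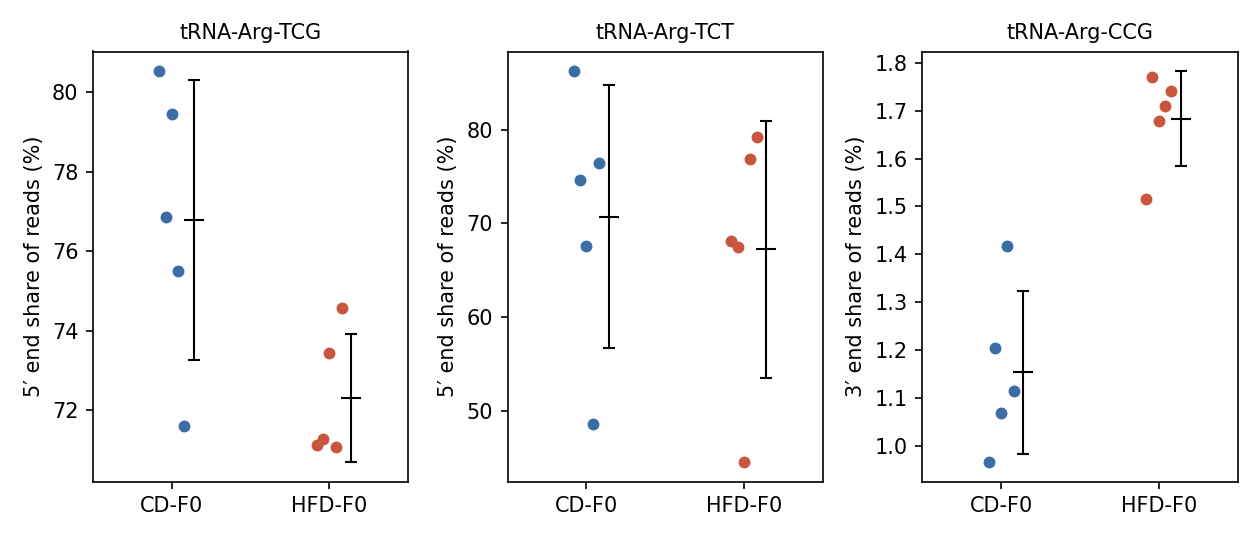
Share, in percent, of the reads of an isoacceptor that came from the named part, with 1 point per library and the mean ± SD in black, for the 5′ end of tRNA-Arg-TCG, the 5′ end of tRNA-Arg-TCT and the 3′ end of tRNA-Arg-CCG. The axes do not start at 0. The 3′ end share of tRNA-Arg-CCG does not overlap between the diets (0.966% to 1.42% against 1.52% to 1.77%), and the 5′ end share of tRNA-Arg-TCT overlaps widely.

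The mitochondrial genome encodes a separate tRNA-Arg, with the anticodon TCG, for protein synthesis inside mitochondria. Its fragments were rare, at 7.76, 15.8, 9.16, 9.62 and 20.3 RPM in CD-F0 replicates 1 to 5 and 22.6, 23.8, 14.8, 20.4 and 21.4 RPM in HFD-F0 replicates 1 to 5. Only HFD-F0 replicate 3 lay within the CD-F0 range. The total of the mitochondrial tRNA-Arg had a log2 fold change of 0.65 ± 0.27 (SE), with an adjusted p of 0.389 in edgeR's quasi-likelihood test. Its internal reads lay at 2.71 to 6.04 RPM in CD-F0 and 6.59 to 11.0 RPM in HFD-F0. Their log2 fold change was 0.97 ± 0.25 (SE), with an adjusted p of 0.224 in edgeR's quasi-likelihood test. How many of all features had separate RPM ranges was not counted. The CCA end, at 0.329 to 1.85 and 1.87 to 5.12 RPM, was the only tested tRNA-Arg feature of either genome that passed the thresholds of the study. This part had few reads in each library, and its diet ranges nearly met, at 1.85 and 1.87 RPM. Its log2 fold change was 1.33 ± 0.41 (SE), with an unadjusted p of 0.00660 and an adjusted p of 0.225 in edgeR's quasi-likelihood test. Of the 53 mitochondrial tRNA features tested, 11 passed, all higher in HFD-F0, and of the 193 nuclear ones 3. Whether the mitochondrial and the nuclear tRNA-Arg differed in their change was not tested.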

How the data were processed

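Small RNA reads of 5 CD-F0 and 5 HFD-F0 sperm samples were assigned by the authors with SPORTS to annotated RNA classes on mm10, and Bowtie is named in the submitters' processing notes. The deposited values are estimated counts, not normalized, since a read that fits several tRNAs is split between them. They were rounded to whole numbers for testing. Genome-matched and unmatched reads were added, and internal reads are an anticodon's total minus its ends. All features were fitted together in edgeR 4.0.16 (R 4.3.3) with filterByExpr, TMM and the quasi-likelihood test, checked on simulated data, with Benjamini-Hochberg adjustment over all features. DESeq2 1.42.0 was an alternative. Shares and orders were tested by exact permutation over samples for nuclear tRNAs with a mean of at least 100 reads. Counting error alone (95% Wilson interval) was 0.493% to 1.29% of a total and 5.30% to 19.0% of a 3′ end count. The tRNAs named beside the members were those nearest by part composition and by level, the mitochondrial tRNA-Arg, and the extremes of the list known for 5′ fragments in sperm. tRNA-Thr-AGT and tRNA-Tyr-GTA beside the unmatched shares, the 5′ ends with wider fold ranges, and the 5′ end of tRNA-Thr-TGT, were chosen after their values were seen. The members and lists were chosen with earlier results of these data known.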

Additional observations from a re-analysis of the deposited data

Results flagged for a closer look

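In 90 groups of 5 values (each isoacceptor, part and diet, as RPM and as shares), 9 held a library farther from the others than Dixon's 95% critical value of 0.71 for the gap over the range, where chance gives about 1 in 20 groups. HFD-F0 replicate 1 was low for the CCA end of tRNA-Arg-CCT (11.0 RPM, the others 42.4 to 52.3) and of tRNA-Arg-TCT (26.8 RPM, the others 103.9 to 124.7), and for the 3′ end share of tRNA-Arg-CCT (0.176%, the others 0.475% to 0.554%). HFD-F0 replicate 5 was high for the internal reads of tRNA-Arg-ACG (946.8 RPM, the others 543.3 to 621.1) and of tRNA-Arg-TCT (957.6 RPM, the others 597.2 to 660.2). CD-F0 replicate 1 was low for tRNA-Arg-CCG in total (1820 RPM, the others 2422 to 2640) and in its internal reads (1013 RPM, the others 1541 to 1753). The same library was high for the CCA end share of tRNA-Arg-ACG (3.05%, the others 1.07% to 1.30%). CD-F0 replicate 4 was high for the 3′ end share of tRNA-Arg-TCG (0.497%, the others 0.360% to 0.371%).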

How the results depend on the processing

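No tRNA-Arg feature or total passed the thresholds of the study under any of the 18 alternatives run. The number of all parts called moved from 30 of 814 (3.69%) to 93 of 1467 (6.34%) without the filter on low counts, to 19 of 729 (2.61%) with at least 10 counts in every sample, to 12 of 249 (4.82%) with tRNA features only and to 22 to 50 on leaving out each library. For totals 19 of 641 became 75 of 1252 without the filter, 1 of 76 with tRNA features only, 10 of 641 with the replicate block and 10 to 37 on leaving out each library. Among the fitted changes, the tRNA-Arg-TCT 5′ end ran from -0.64 to 0.25 on leaving out each library, the tRNA-Arg-TCT total from -0.45 to 0.21 and the tRNA-Arg-ACG total from -0.25 to 0.034. Without the first replicate of both groups, a setting chosen after seeing the data for their few CCA end reads, the tRNA-Arg-TCT 5′ end was at 0.37 and the tRNA-Arg-TCT total at 0.36.

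The 5′ end share difference of tRNA-Arg-TCG was -3.26 points without those libraries (exact permutation p = 0.114) and -0.575 points over 5′ plus CCA end reads only (exact permutation p = 0.0714), and -5.79 to -3.56 points on leaving out each library. Leaving out each library gave -0.49 to 0.67 points for tRNA-Arg-CCT and -9.01 to 2.21 for tRNA-Arg-TCT, and 0.893 and 0.19 without the first replicates. With 5′ end reads only, the mean log2 difference was 1.34 for tRNA-Arg-TCT over tRNA-Arg-CCG, 2.33 for tRNA-Arg-CCG over tRNA-Arg-CCT and -0.66 for tRNA-Arg-CCT over tRNA-Arg-ACG. For tRNA-Arg-CCG over tRNA-Arg-CCT it was 0.27 without the first replicates (exact permutation p = 0.00781) and 0.16 to 0.27 on leaving out each library. That p is the smallest possible for the libraries left, because the only exception to this order was left out. The cause of these moves was not tested.

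The labels number the replicates alike in both groups, but same-numbered samples deviated together in replicates 1 and 3 only (correlations 0.44 and 0.33, against -0.02, -0.23 and -0.06 in replicates 2, 4 and 5), so the numbers were not taken as pairs, and 4 of 10 samples correlated best with their own number. With the replicate block the 5′ end share difference of tRNA-Arg-TCG, -4.50 points by construction, had an exact permutation p of 0.125, where sign flips of 5 pairs cannot give less than 0.0625. The block moved the calls over all parts from 30 to 25.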
